A study of Mus musculus with 6 samples.

Results

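Foxp3, Helios and 8 other genes that mark regulatory T cells were followed in CD4+ T cells of young and old mice. The 10 genes, Foxp3, Ikzf2 (Helios), Ikzf4 (Eos), Nrp1, Lrrc32, Gpr83, Ebi3, Entpd1, Nt5e and Izumo1r, were chosen by name as regulatory T-cell markers, from 19977 genes in the deposited table. All 10 passed the filter on low values, Entpd1 only through its old libraries. The cells came from the spleen and lymph nodes of wild-type C57BL/6 mice, were purified as CD4+ by flow cytometry and were then kept in culture with anti-CD3 and anti-CD28 for 6 h, so that every library holds stimulated cells and none is from resting cells. The young mice were 6 to 8 weeks old and the old mice 11 months, with 3 RNA-seq libraries per group. The labels do not tell whether the 3 libraries came from separate animals, so p-values measure only the spread between these libraries, which may be technical.

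Regulatory T cells are a CD4+ lineage that restrains other immune cells. The forkhead factor Foxp3 defines the lineage and holds its gene programme together with partner factors such as Helios and Eos, which belong to the Ikaros zinc finger family. The suppressive machinery includes surface GARP, which carries latent TGF-beta, and the ectoenzymes CD39 and CD73, which turn extracellular ATP into adenosine. In mice, activated conventional CD4+ T cells can also express some of these genes, among them Nt5e, Izumo1r and Ikzf2.

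Each library held between 16932551 and 18708205 expected counts, that is, the read counts that the RSEM program assigns to transcripts by a model. Young replicate 1 stood apart: the correlation of log2 levels across genes was 0.927 and 0.914 between it and young replicates 2 and 3, 0.982 between these, and 0.976 to 0.986 among the old libraries. The differences of the 10 genes, their order and ratios, and the counts of calls in the lists are therefore also given without it. Of the sort markers, Cd4 was at 639, 454 and 320 CPM (counts scaled to a common library size) in young replicates 1, 2 and 3, and at 630, 513 and 406 in the old ones, and Cd3e was at 373 to 497 CPM in young and 430 to 570 CPM in old libraries. Of 8 markers of CD4+ T cells, 0 were called by either edgeR or DESeq2, and none reached an unadjusted p of 0.05 in edgeR.

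Foxp3, on chromosome X from 7579676 to 7595243 on the plus strand (GRCm38), has a pair of annotated start sites 807 bases apart. RefSeq (GRCm38.p6) supplies a window of 300 bases around each, 250 before the start and 50 from it, and both are shown because transcripts from both starts were present in all 6 libraries. Capitals mark matches, on either strand, to the letters TTTCC (NFAT), TGGGAA (Ikaros), TGTGGT (Runx) and TTCNNNGAA (STAT).
Foxp3, upstream start, chrX:7579426-7579725, plus strand: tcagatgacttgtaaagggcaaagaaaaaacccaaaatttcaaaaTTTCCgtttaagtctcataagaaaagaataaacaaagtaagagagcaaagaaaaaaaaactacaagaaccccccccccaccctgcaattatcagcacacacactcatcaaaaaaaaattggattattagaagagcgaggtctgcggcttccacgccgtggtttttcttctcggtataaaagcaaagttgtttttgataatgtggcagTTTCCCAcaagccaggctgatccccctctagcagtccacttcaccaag
Foxp3, downstream start, chrX:7580233-7580532, plus strand: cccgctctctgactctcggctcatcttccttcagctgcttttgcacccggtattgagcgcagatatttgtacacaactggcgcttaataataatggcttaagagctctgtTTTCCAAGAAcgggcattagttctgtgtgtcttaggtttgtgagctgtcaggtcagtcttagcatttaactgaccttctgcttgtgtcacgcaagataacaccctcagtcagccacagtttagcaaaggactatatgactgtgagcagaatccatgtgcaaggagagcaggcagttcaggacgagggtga
The upstream window held 2 NFAT matches, of which the one just after the start overlaps an Ikaros match, and the downstream window held an NFAT match that overlaps a STAT match. Of all 32851 windows in the same table, 61.3% held the NFAT letters, 25.6% the Ikaros letters and 8.3% the STAT letters. Among 9 windows of 7 of the marker genes, 6 held an NFAT match, 3 an Ikaros match, 2 a Runx match (16.8% of all windows) and 1 a STAT match. The letters TGTTTAC (forkhead), TGANTCA (AP-1) and TGACGTCA (CRE) were in none of the 9, against 3.65%, 7.81% and 1.79% of all windows. E-box letters, CANNTG, which are not in capitals, were in 6 of the 9 and in 72.3% of all windows. A match describes letters in a window and says nothing of binding.

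Foxp3 transcripts were at 201, 127 and 58.7 CPM in young replicates 1, 2 and 3, and at 393, 420 and 359 CPM in the old replicates. The old libraries lay close together and all above the young ones, which spread over a 3.42-fold range against 1.17-fold in the old. The mean was 129 ± 71.0 CPM (SD, n = 3) in young and 391 ± 30.7 CPM (SD, n = 3) in old libraries, a 3.03-fold difference. The difference of 1.60 ± 0.40 (log2, SE) did not pass the quasi-likelihood test of edgeR, with Benjamini-Hochberg adjustment over all genes tested (adjusted p = 0.157). Without young replicate 1, the young library with the most Foxp3, it was 2.07 ± 0.30 and passed (adjusted p = 0.00835 in edgeR). Without young replicate 3, the one with the least, it was 1.24 and did not pass (adjusted p = 0.194 in edgeR). In bulk RNA, more regulatory T cells among the CD4+ cells and more Foxp3 RNA per cell cannot be told apart, and this holds for each gene below.

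**Figure D1:**
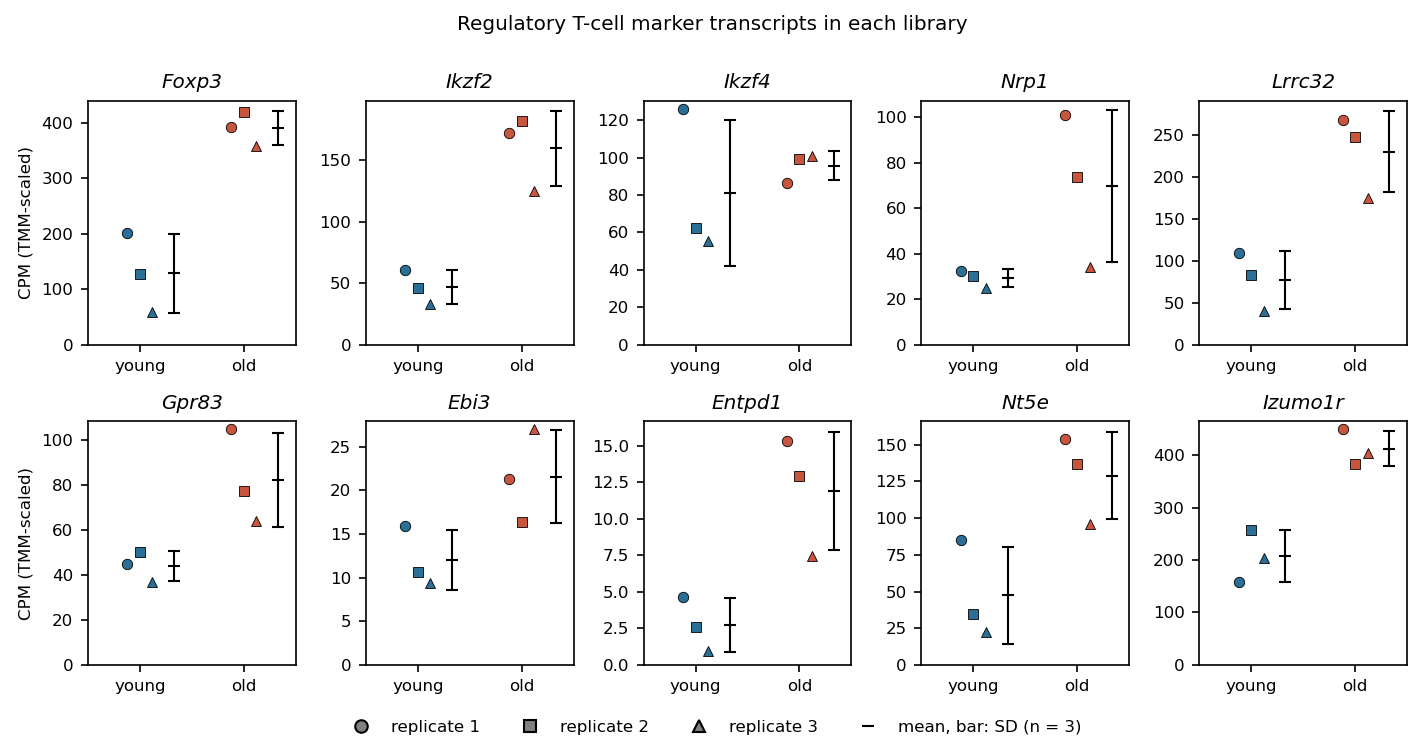
Level of each of the 10 marker genes in every library, in CPM on TMM-scaled library sizes, for young (blue) and old (red) libraries; marker shapes give the replicate, and the bar beside each group is the mean with its SD (n = 3). In every panel except that of Ikzf4 the 3 old libraries lie above the 3 young ones; for Foxp3 the old libraries are at 359 to 420 CPM and the young at 58.7 to 201 CPM.

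Helios rose in old libraries and was, among the 10 genes, the single one that passed the test with all 6 libraries. Ikzf2, on chromosome 1 from 69531207 to 69687351 on the minus strand, was at 60.8, 46.4 and 32.8 CPM in the young libraries and at 172, 182 and 125 CPM in the old ones. The groups were well apart, with the lowest old library 2.06-fold above the highest young one. The difference was 3.42-fold, or 1.77 ± 0.27 (log2, SE; adjusted p = 0.0368 in edgeR). Without young replicate 1 it was 2.01 ± 0.22 (adjusted p = 0.0036 in edgeR). The call ended when any other library was left out, with log2 differences of 1.77 (adjusted p = 0.15) without young replicate 2, 1.57 (0.128) without young replicate 3, 1.72 (0.125) without old replicate 1, 1.67 (0.217) without old replicate 2 and 1.92 (0.0905) without old replicate 3. It also ended with genes limited to a mean of 5 FPKM (a level scaled by transcript length and library size; log2 1.76, adjusted p = 0.0558).

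For Eos the old libraries did not stand above the young ones. Ikzf4, on chromosome 10 from 128630839 to 128669671 on the minus strand, was at 126, 62.1 and 55.3 CPM in young and at 86.6, 99.2 and 101 CPM in old libraries. It was the single marker whose groups overlapped, because young replicate 1 had the highest level of all 6 libraries. The difference was 0.24 ± 0.31 (log2, SE; adjusted p = 0.885 in edgeR), and without that library 0.70 ± 0.13 (adjusted p = 0.0195 in edgeR). Of the other members of the Ikaros family, the Aiolos gene Ikzf3 was at 278, 196 and 165 CPM in young and 314, 506 and 341 CPM in old libraries (log2 0.86 ± 0.27, adjusted p = 0.266 in edgeR; 1.10 and 0.0223 without young replicate 1). Ikzf1, which encodes Ikaros, was at 536 to 649 CPM in young and 540 to 612 CPM in old libraries. Of 5 genes tested in the family, 1, Helios, was called with all libraries and 3, Helios, Eos and Aiolos, without young replicate 1. Over all genes tested, 0.742% and 5.86% were called higher in these fits.

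Among the 10 markers, 1 was called higher and 0 lower in old libraries, where 0.742% of the 10509 genes tested were called higher and 0.875% were called in either direction. At an unadjusted p under 0.05, 9 of the 10 were higher, against 6.69% of genes tested. In 9 of 10, all old libraries lay above all young ones, against 9.9% of genes tested. All 10 estimates were positive, from 0.24 to 2.13, with a median log2 difference of 1.35, where the median of all genes tested was -0.03. Without young replicate 1, 9 markers, all but Nrp1, were called higher and 0 lower. The median was then 1.62 against 0.01 for all genes tested, of which 5.86% were called higher and 2.98% lower. Young replicate 1 was the highest young library in 8 of the 10 markers. Leaving out any other single library left 0 of the 10 called in edgeR, where only 0 to 9 of all 10509 genes tested were called. DESeq2 with all 6 libraries called 8 of the 10 higher, Ebi3 and Ikzf4 being the others, where it called 3.56% of all genes higher and 1.21% lower. The genes were put together by name with earlier results of these data known, so these counts describe them and are no independent test. Entpd1, which has the highest estimate, passed the filter on low values only through its old libraries (mean 0.65 FPKM in young). Its part in these counts is therefore tied to its difference.

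**Figure D2:**
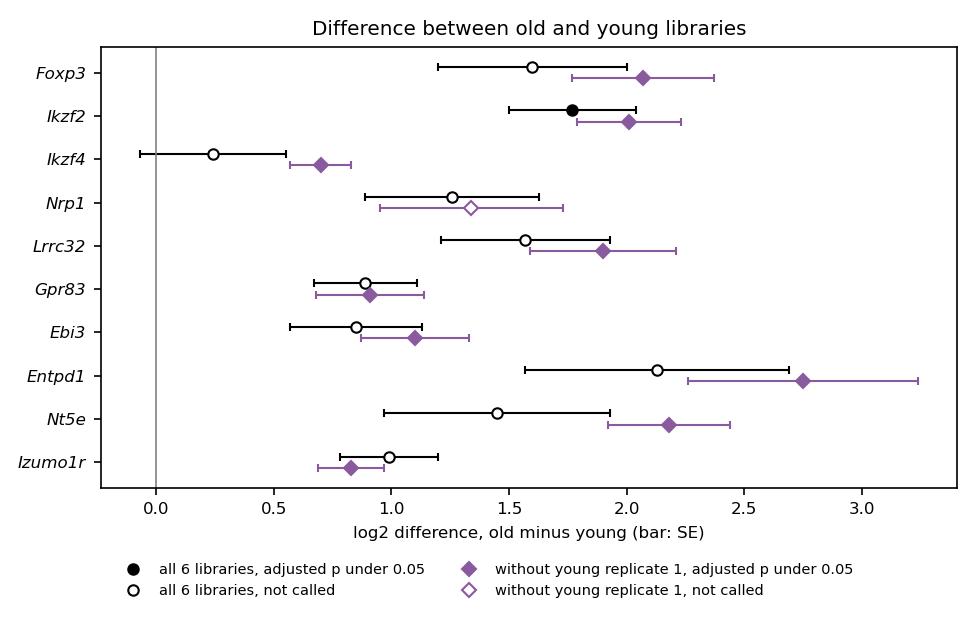
Log2 difference (old minus young) of each marker from edgeR, with its SE as the bar, with all 6 libraries (black circles) and without young replicate 1 (purple diamonds); filled symbols have an adjusted p under 0.05. With all libraries 1 of 10 is filled (Ikzf2, 1.77), and without young replicate 1 all but Nrp1 are.

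Of the surface receptors, Nrp1 varied most between old libraries. Neuropilin-1 is a coreceptor for semaphorins and VEGF and is much used to mark regulatory T cells that arose in the thymus. Nrp1, on chromosome 8 from 128358591 to 128505476 on the plus strand, was at 32.6, 30.0 and 24.9 CPM in young and at 101, 73.9 and 34.3 CPM in old libraries. The young libraries were close together, and old replicate 3 was 1.05-fold above the highest of them while old replicate 1 was 2.95-fold above old replicate 3. The difference was 1.26 ± 0.37 (log2, SE; adjusted p = 0.234 in edgeR) and, without young replicate 1, 1.34 ± 0.39 (adjusted p = 0.0716 in edgeR). In the list of neuropilins, semaphorins, plexins and associated genes, 0 of 11 genes tested were called in either direction in edgeR. Of these, 4, among them Nrp1, had an unadjusted p under 0.05, all higher, and DESeq2 called 2 higher. EdgeR called 1 higher without young replicate 1. Of all genes tested, 6.69%, 3.56% and 5.86% were higher by these rules in turn. Nrp2, the second neuropilin, was at 5.37 to 6.72 CPM in young and 9.0 to 14.5 CPM in old libraries, and the semaphorin Sema7a at 65.8, 216 and 190 CPM in young and 233, 349 and 483 CPM in old libraries (log2 0.90 ± 0.25 and 1.17 ± 0.46, adjusted p = 0.212 and 0.406 in edgeR).

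Lrrc32 encodes GARP, which anchors latent TGF-beta at the surface of activated regulatory T cells. The gene lies on chromosome 7 from 98489305 to 98501831 on the plus strand, and its level was 109, 82.7 and 40.6 CPM in young and 267, 247 and 175 CPM in old libraries. Young replicate 3 was lowest, as for Foxp3, and the groups did not overlap. The difference was 2.97-fold, or 1.57 ± 0.36 (log2, SE; adjusted p = 0.12 in edgeR), and 1.90 ± 0.31 without young replicate 1 (adjusted p = 0.0129 in edgeR). Without young replicate 3 it was 1.25 (adjusted p = 0.201 in edgeR). Of 11 tested genes that handle TGF-beta, 0 were called in edgeR, against 3 higher in DESeq2, and 3 had an unadjusted p under 0.05: Itgb8, Itgav and Lrrc32. Leaving out young replicate 1, edgeR called 5 higher. Over all genes tested, 3.56% were higher in DESeq2, 6.69% at an unadjusted p under 0.05 and 5.86% in edgeR without young replicate 1. Itgb8 and Itgav encode the integrin chains that release TGF-beta from GARP. Itgb8 was at 2.03, 1.02 and 0.982 CPM in young and 6.82, 16.8 and 5.63 CPM in old libraries (log2 2.86 ± 0.54, adjusted p = 0.075 in edgeR; 0.0148 without young replicate 1), and Itgav at 54.1, 58.9 and 49.7 CPM in young and 85.8, 129 and 94.8 CPM in old libraries (0.93 ± 0.20, adjusted p = 0.0931 in edgeR; 0.0273 without young replicate 1). The young Itgb8 levels were low (mean 1.34 CPM), so its estimate rests on few counts. Whether Itgb8 would pass the filter on low values in the young libraries alone was not checked. Tgfb1, the cytokine gene itself, was at 265, 264 and 233 CPM in young and 277, 277 and 346 CPM in old libraries (0.24 ± 0.16, adjusted p = 0.717 in edgeR).

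Gpr83 and Izumo1r are neighbours on chromosome 9, from 14859880 to 14870789 on the plus strand and from 14885814 to 14903951 on the minus strand, so that they are transcribed towards each other with their 3′ ends 15025 bases apart. Gpr83, a G protein-coupled receptor enriched in regulatory T cells, was at 44.9, 50.3 and 36.9 CPM in young and 105, 77.2 and 64.0 CPM in old libraries. Izumo1r, which encodes folate receptor 4, a protein of regulatory and anergic T cells and the egg's receptor for the sperm protein Izumo1, was at 159, 258 and 204 CPM in young and 450, 384 and 404 CPM in old libraries. For both genes the groups did not overlap, and Izumo1r was the single marker with its lowest level in young replicate 1. Gpr83 differed by 0.89 ± 0.22 (log2, SE; adjusted p = 0.157 in edgeR; 0.91 ± 0.23 and 0.0481 without young replicate 1). Izumo1r differed by 0.99 ± 0.21 (adjusted p = 0.0931 in edgeR; 0.83 ± 0.14 and 0.0151 without young replicate 1). Of 3 tested genes of folate receptors and transporters, 0 were called in edgeR and 1 in DESeq2, and 1, Izumo1r, had an unadjusted p under 0.05 in edgeR; the transporter Slc19a1 was at 77.8, 170 and 172 CPM in young and 121, 145 and 134 CPM in old libraries. In the anergy list, which includes Izumo1r, Nt5e and Nrp1, 0 of 14 tested genes were called in edgeR and 5 in DESeq2, and 5 had an unadjusted p under 0.05 in edgeR, all higher, with a median difference of 0.37. With young replicate 1 left out, edgeR called 3 of the anergy list and 1 of the folate list, Izumo1r, all higher. The markers Izumo1r, Nt5e and Nrp1 were themselves among the 5 of the anergy list with an unadjusted p under 0.05. The shares of all genes tested that were higher were 3.56% in DESeq2, 6.69% at an unadjusted p under 0.05 and 5.86% in edgeR without young replicate 1. Egr2, a zinc finger factor induced by the T-cell receptor, was at 104, 229 and 204 CPM in young and 357, 408 and 434 CPM in old libraries (log2 1.16 ± 0.29, adjusted p = 0.16 in edgeR; 0.89 and 0.00957 without young replicate 1).

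Ebi3 encodes the beta subunit that pairs with Il27 in interleukin 27 and with Il12a in interleukin 35. The gene lies on chromosome 17 from 55952623 to 55957022 on the plus strand, and was at 15.9, 10.7 and 9.42 CPM in young and 21.3, 16.4 and 27.0 CPM in old libraries. The groups were separated by a narrow gap, the lowest old library being 1.03-fold above the highest young one. The difference was 0.85 ± 0.28 (log2, SE; adjusted p = 0.297 in edgeR), and 1.10 ± 0.23 without young replicate 1 (adjusted p = 0.0275 in edgeR). Ebi3 shares 270 of its 1154 exon bases (GENCODE M21) with Gm16712 on the other strand, and the strand setting of the counting is not given in the sources used here. In the family of interleukins 12 and 35 and their receptors, 0 of 5 tested genes were called in edgeR or DESeq2. Of these 5, 1, Ebi3, had an unadjusted p under 0.05, where 6.69% of all genes tested were higher by that rule. Without young replicate 1 edgeR called 2 higher, Ebi3 and Il6st, against 5.86% of all genes tested. The receptor chain Il12rb1 was at 31.1, 115 and 111 CPM in young and 127, 158 and 180 CPM in old libraries (0.85 ± 0.45, adjusted p = 0.604 in edgeR), so that young replicate 1 was well below every other library.

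CD39 and CD73 act in sequence on extracellular nucleotides. Entpd1, the CD39 gene, on chromosome 19 from 40612366 to 40741602 on the plus strand, was at 4.63, 2.58 and 0.924 CPM in young and 15.3, 12.9 and 7.43 CPM in old libraries. It had the largest estimate of the 10, 2.13 ± 0.56 (log2, SE; adjusted p = 0.173 in edgeR; 2.75 ± 0.49 and 0.0166 without young replicate 1). The level in young replicate 3 rests on 16 counts, with an exact Poisson 95% interval of 9.15 to 26.0 that covers counting error only. With a mean of 0.65 ± 0.456 FPKM (SD, n = 3) in young and 2.84 ± 0.997 FPKM (SD, n = 3) in old libraries, Entpd1 passed the filter of a mean of at least 1 FPKM through the old group, so its presence among the genes tested is itself tied to its difference.

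Nt5e, the CD73 gene, on chromosome 9 from 88327609 to 88372089 on the plus strand, was at 85.1, 34.8 and 22.1 CPM in young and 154, 137 and 96.1 CPM in old libraries. Old replicate 3 was 1.13-fold above young replicate 1, while the other young libraries were far lower. The difference was 1.45 ± 0.48 (log2, SE; adjusted p = 0.299 in edgeR), and 2.18 ± 0.26 without young replicate 1 (adjusted p = 0.00493 in edgeR). Of 14 tested genes of adenosine production, breakdown and sensing, 0 were called in edgeR and 3 in DESeq2, and 3 had an unadjusted p under 0.05 in edgeR: Entpd1, Nt5e and the receptor gene Adora2a. Adora2a was at 40.3, 46.1 and 39.8 CPM in young and 56.5, 60.4 and 76.7 CPM in old libraries (0.62 ± 0.17, adjusted p = 0.212 in edgeR). The median over the 14 was -0.04, near that of all genes. EdgeR called 2 of the 14 higher, Entpd1 and Nt5e, without young replicate 1. All genes called in this list were higher in old libraries. Over all genes tested, 3.56% were higher in DESeq2 and 6.69% at an unadjusted p under 0.05 in edgeR. Without young replicate 1, edgeR called 5.86% of all genes tested higher.

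Entpd1 also has start sites far apart, and their windows are shown because NM_001304721.1, a transcript from the upstream one, was listed at 0 in all 6 libraries. Capitals mark the same letters as in the Foxp3 windows.
Entpd1, upstream start, chr19:40612116-40612415, plus strand: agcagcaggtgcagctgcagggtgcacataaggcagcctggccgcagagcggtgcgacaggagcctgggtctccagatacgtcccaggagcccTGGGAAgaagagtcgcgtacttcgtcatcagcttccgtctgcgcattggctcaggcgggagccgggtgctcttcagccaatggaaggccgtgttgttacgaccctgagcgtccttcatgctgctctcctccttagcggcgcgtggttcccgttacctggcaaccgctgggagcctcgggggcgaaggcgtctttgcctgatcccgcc
Entpd1, downstream start, chr19:40659520-40659819, plus strand: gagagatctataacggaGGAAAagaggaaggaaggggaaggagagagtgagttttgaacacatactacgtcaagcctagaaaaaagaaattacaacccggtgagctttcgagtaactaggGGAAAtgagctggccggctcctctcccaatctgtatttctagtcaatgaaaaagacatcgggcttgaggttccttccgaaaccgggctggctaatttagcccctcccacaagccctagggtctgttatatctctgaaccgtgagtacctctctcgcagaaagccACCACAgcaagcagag
The upstream window is richer in G and C, at 64% with 23 CpG, than the downstream one at 48.7% with 10 CpG; the median window holds 52.7% and 7 CpG. NM_001304721.1, from the upstream start, was at 0 FPKM throughout. The starts of other listed forms, such as XM_006526620.3 (above 0 in 5 libraries), are not given here. Whether the upstream start was used is therefore not settled. NM_009848.4, from the downstream start, was above 0 in 3 libraries, and the leading transcript differed between libraries, so that the deposited values do not settle which form was expressed. For Foxp3 the windows held 40.7% G and C with 6 CpG upstream and 47.7% with 8 CpG downstream.

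The 2 main forms of Foxp3, 1 from each start, were at higher levels in every old library than in any young one. The form of the upstream start, NM_054039.2, was at 49.5, 30.3 and 13.3 FPKM in young and 94.9, 104 and 86.6 FPKM in old libraries. That of the downstream start, NM_001199348.1, was at 4.51, 2.55 and 1.5 FPKM in young and 9.65, 7.28 and 5.85 FPKM in old libraries. The downstream form made up 8.7% ± 1.27 (SD, n = 3) of Foxp3 FPKM in young and 7.35% ± 1.63 (SD, n = 3) in old libraries, with overlapping groups. The remaining form, NM_001199347.1, which shares the upstream start, was at 0.5 FPKM in young replicate 2 and 0.45 FPKM in old replicate 2 and was listed at 0 elsewhere. Transcript values are given with no test, because RSEM divides shared reads between forms by a model. Foxp3 has 4577 exon bases in GENCODE M21. Its overlaps with exons of other genes, added up gene by gene, come to 2082 bases. A base shared with several of these genes is counted for each. Most of these genes lie on the other strand, but Flicr lies on the strand of Foxp3, and no values for it are given here. Of these neighbours, named for the overlap, Ccdc22 was at 40.3, 37.8 and 54.4 CPM in young and 29.4, 28.0 and 29.1 CPM in old libraries, and Ppp1r3f at 26.0, 8.49 and 9.99 CPM in young and 7.8, 8.42 and 7.7 CPM in old libraries, both with negative estimates (log2 -0.62 ± 0.18 and -0.89 ± 0.43, adjusted p = 0.247 and 0.547 in edgeR).

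For Nrp1, Lrrc32 and Ebi3, a second form made up a smaller share of the gene in old than in young libraries. The leading Nrp1 form, NM_008737.2, was at 4.74, 4.53 and 3.66 FPKM in young and 16.5, 11.8 and 5.37 FPKM in old libraries, whereas XM_006530768.3 was at 1.15, 0.87 and 0.75 FPKM in young and 0.74, 0.81 and 0.31 FPKM in old libraries. The second form rests on few reads, and its share was 16.9% ± 1.16 (SD, n = 3) in young and 5.25% ± 0.99 (SD, n = 3) in old libraries, and the groups did not overlap. By expected counts, which are not scaled by length, that share was 7.97% ± 0.682 and 2.29% ± 0.452 (SD, n = 3 each), also with groups apart. For Lrrc32 the second form, XM_006507977.1, was at 9.9, 4.47 and 3.37 FPKM in young and 8.79, 12.3 and 4.06 FPKM in old libraries, and its share was 29.9% ± 7.62 and 13.7% ± 5.12 (SD, n = 3 each). For Ebi3 the second form, XM_006524599.3, was at 2.48, 1.23 and 2.05 FPKM in young and 1.28, 1.61 and 0.72 FPKM in old libraries, a share of 18% ± 5.84 and 6.9% ± 3.86 (SD, n = 3 each). In all 3 genes the lowest young share was above the highest old share. By expected counts the shares were 30.6% ± 7.72 and 14.1% ± 5.22 for Lrrc32 and 13.2% ± 4.57 and 4.92% ± 2.79 for Ebi3 (SD, n = 3 each). An Ikzf4 form, XM_006513614.2, had the opposite order, with 7.45%, 12.6% and 6% in young and 16.7%, 14.3% and 20.7% in old libraries. Over 42 forms of the 9 marker genes with more than 1 form, at a mean of at least 0.1 FPKM, 3 had every old share below every young one and 5 had it above, that is 7.14% and 11.9%. The same held for 3.52% and 3.78% of 29646 forms of all genes tested, and forms of 1 gene are not independent, since their shares sum to a whole. Ikzf2 has 12 forms in the table and 3 different ones led across the 6 libraries, so no form is singled out; the share of XM_006495967.3, for example, ran from 1.51% to 66.7%.

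**Figure D3:**
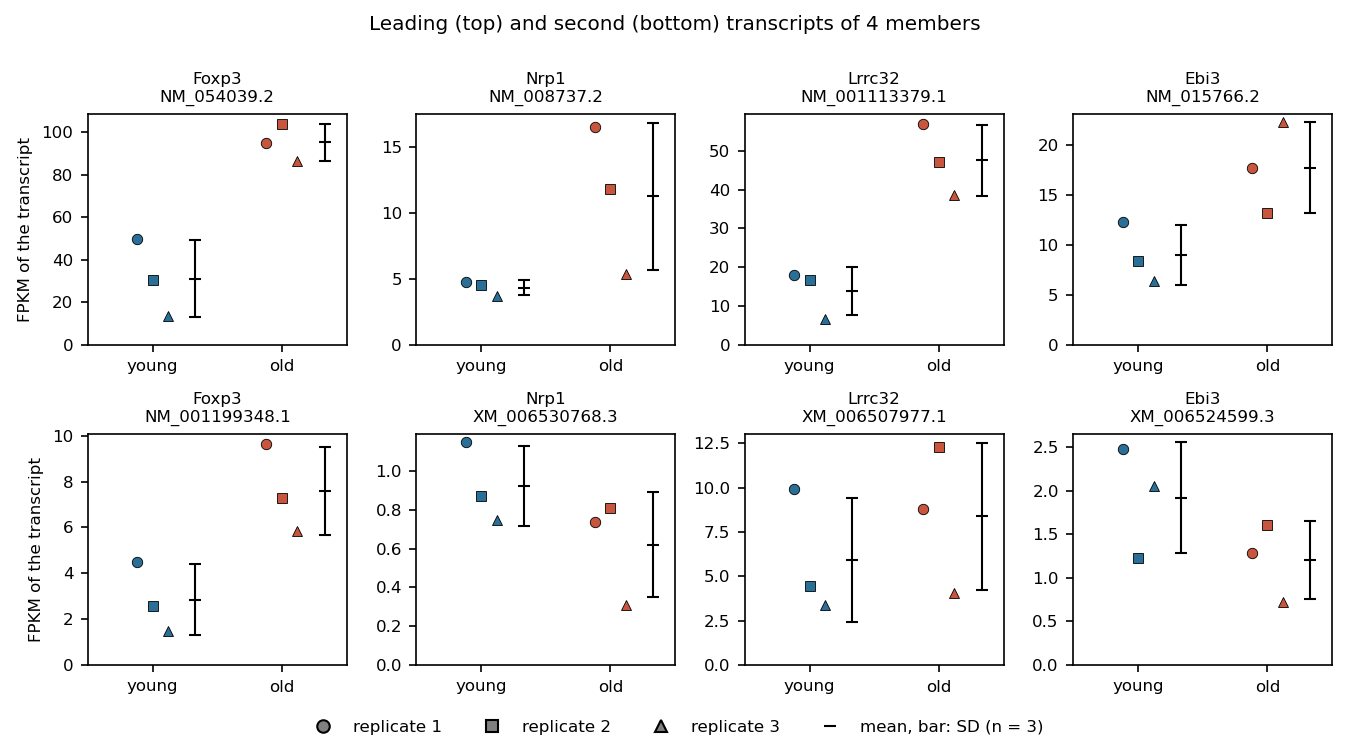
FPKM of the leading transcript (top) and of the second transcript (bottom) of Foxp3, Nrp1, Lrrc32 and Ebi3 in every library, with the mean and SD (n = 3) beside each group. Both Foxp3 forms are higher in old libraries, while the second Nrp1 form is at 0.75 to 1.15 FPKM in young and 0.31 to 0.81 FPKM in old libraries although the leading form is higher in old.

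Compared per length, Izumo1r had the highest level of the 10 and Entpd1 the lowest in both groups. In young libraries the order of mean FPKM was Izumo1r (185 ± 43.3, SD, n = 3), Foxp3 (34.1 ± 19.6), Lrrc32 (19.9 ± 9.3), Ikzf4 (15.6 ± 7.78), Nt5e (13.2 ± 9.63), Gpr83 (12.3 ± 2.09), Ebi3 (10.9 ± 3.41), Nrp1 (5.43 ± 0.978), Ikzf2 (4.96 ± 1.66) and Entpd1. Neighbours in that order overlapped in range except Izumo1r with Foxp3, Ebi3 with Nrp1 and Ikzf2 with Entpd1. In old libraries it was Izumo1r (367 ± 36.9), Foxp3 (103 ± 9.86), Lrrc32 (59.3 ± 13.2), Nt5e (35.8 ± 8.84), Gpr83 (23.0 ± 6.15), Ebi3 (19 ± 4.1), Ikzf4 (18.5 ± 1.3), Ikzf2 (17.1 ± 3.48), Nrp1 (12.1 ± 5.93) and Entpd1. There the first 4 were separate from each other, the genes from Nt5e to Nrp1 overlapped their neighbours, and Entpd1 was separate from Nrp1. Eos was at rank 4 in young and at rank 7 in old libraries. Over young replicates 2 and 3 alone, the first 3 and the last 3 genes were in the order of all young libraries, and between them came Gpr83 (mean 12.0 FPKM), Ikzf4 (11.2), Ebi3 (9.0) and Nt5e (7.73), so Eos was at rank 5 there.

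Set against Foxp3 in the same library, 7 of 9 markers had a lower mean log2 ratio in old than in young libraries, and the other 2, Ikzf2 and Entpd1, a higher one. Ikzf2 was at 30.3, 36.5 and 55.9 counts per 100 Foxp3 counts in young and at 43.8, 43.3 and 34.9 in old libraries, a log2 difference of 0.03 (exact permutation test, two-sided p = 1). Lrrc32 and Nt5e differed by -0.11 and -0.12 (exact p = 0.6 and 0.7), and for Lrrc32 the 6 libraries lay between 48.9 and 69.2 per 100. Ikzf4 was at 62.8, 48.8 and 94.2 per 100 in young and 22.0, 23.6 and 28.2 in old libraries, and Ebi3 at 7.93, 8.41 and 16.0 in young and 5.43, 3.91 and 7.52 in old libraries. These were the 2 of 9 genes with every old library below every young one, by -1.43 and -0.92 in log2. Their exact permutation p = 0.1 is the smallest that 3 against 3 libraries allow, and it was 0.45 after adjustment over the 9 genes. This test therefore cannot pass 0.05 for any of these ratios. Foxp3 itself was higher in every old library than in any young one. A gene at equal levels in all libraries would thus also have a lower ratio in every old library. How many of all genes tested have such a ratio was not counted. Without young replicate 1 the differences were -1.47 for Ikzf4 and -1.10 for Ebi3, and those near 0 were -0.16 for Ikzf2, -0.21 for Lrrc32 and 0.01 for Nt5e.

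The other ratios had overlapping groups. Nrp1 was at 16.2, 23.6 and 42.4 per 100 Foxp3 counts in young and 25.7, 17.6 and 9.55 in old libraries. Gpr83 was at 22.4, 39.5 and 62.9 in young and 26.6, 18.4 and 17.8 in old libraries, and Izumo1r at 79.4, 203 and 348 in young and 114, 91.4 and 113 in old libraries. In all 3 genes the ratio was highest in young replicate 3, the library with the least Foxp3. Entpd1 was at 2.31, 2.03 and 1.57 in young and 3.9, 3.06 and 2.07 in old libraries (log2 0.56, exact permutation p = 0.2). The log2 differences without young replicate 1 were -0.96 for Nrp1, -1.28 for Gpr83, -1.33 for Izumo1r and 0.68 for Entpd1.

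**Figure D4:**
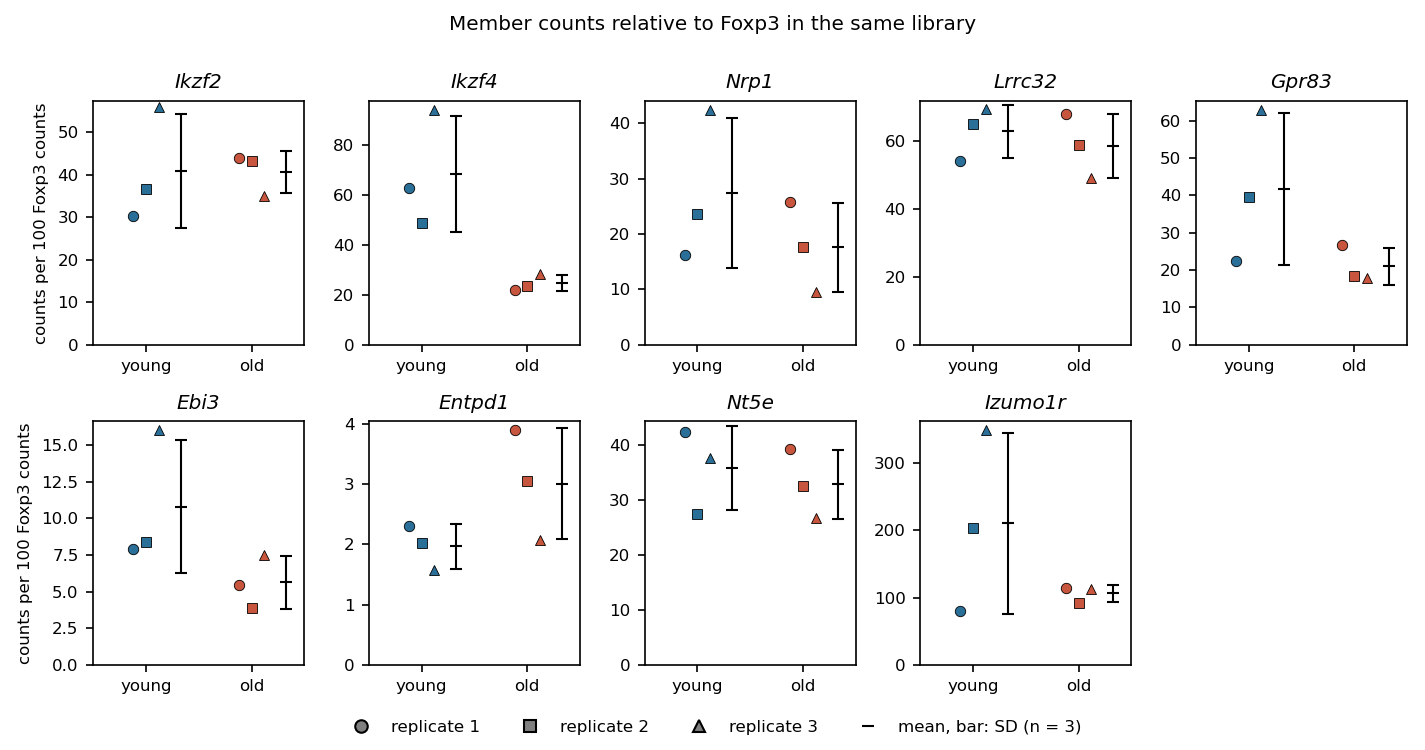
Expected counts of 9 markers per 100 Foxp3 counts in the same library, by group, with the mean and SD (n = 3) beside each group and marker shapes for the replicate. Ikzf4 and Ebi3 have all old libraries below all young ones (22.0 to 28.2 against 48.8 to 94.2 for Ikzf4), and for Ikzf2, Lrrc32 and Nt5e the groups overlap. Foxp3 itself is higher in every old library than in any young one.

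The order of the libraries within a group was compared next. Young replicate 3 was the lowest young library in 9 of 10 markers, as it was in 33.6% of genes tested, and young replicate 1 the highest in 8, as in 45.7%. Old replicate 3 was the lowest old library in 7, as in 33.1%. The gene whose centred log2 profile over the 6 libraries was nearest to that of Foxp3 was Lrrc32 (Euclidean distance 0.446), followed by Lamc1 (0.473), Cd200r1 (0.539), Cxcr5 (0.543) and Ccr2 (0.583), with Nt5e, Entpd1 and Ikzf2 at ranks 9, 10 and 13 of all genes tested. The other markers were farther from Foxp3, with Ebi3 at rank 280, Gpr83 at 291, Nrp1 at 314, Izumo1r at 495 and Ikzf4 at 653. Nearest to Ikzf2 were Cyfip1 (0.199), Prf1 (0.249), Csf1 (0.261), Glt28d2 (0.29) and Gprin3 (0.408), with Lrrc32, Entpd1, Foxp3 and Nt5e at ranks 11, 21, 33 and 56 and the other markers at ranks 164 (Nrp1) to 1027 (Ikzf4). Cxcr5, a chemokine receptor of follicular cells, was at 16.7, 12.9 and 6.47 CPM in young and 55.3, 47.1 and 35.5 CPM in old libraries. Prf1, the perforin gene of cytotoxic cells, was at 2.95, 1.45 and 1.1 CPM in young and 8.67, 9.5 and 6.07 CPM in old libraries.

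Other genes of the regulatory T-cell programme, from a list written with earlier results known, were examined beside the 10. Of 29 tested, 7 were called higher and 0 lower in old libraries, where 0.742% of all genes tested were called higher, with a median log2 difference of 1.09. Interleukin 10, a suppressive cytokine, rose: Il10 was at 2.84, 3.65 and 1.73 CPM in young and 21.9, 26.3 and 16.5 CPM in old libraries (2.97 ± 0.33, adjusted p = 0.0207 in edgeR). The inhibitory receptor genes Tigit (2.30 ± 0.26, adjusted p = 0.0207 in edgeR) and Ctla4 (1.60 ± 0.20, adjusted p = 0.0262 in edgeR) rose as well, as did Il1rl1, the interleukin 33 receptor (1.87 ± 0.22, adjusted p = 0.0233 in edgeR). Without young replicate 1, 21 were called higher and 1 lower, against 5.86% and 2.98% of all genes tested. Leaving out any one of the other 5 libraries left 0 of these genes called, where only 0 to 9 of all 10509 genes tested were called. The 16 genes chosen as low in regulatory T cells held 0 calls in edgeR, and 1 higher and 4 lower in DESeq2. DESeq2 called 3.56% of all genes higher and 1.21% lower. At an unadjusted p under 0.05 in edgeR, 2 of the 16 were higher and 6 lower, against 6.69% and 3.96% of all genes tested. The median of the 16 was -0.44. These values lean on young replicate 1, since without it 5 were called higher and 3 lower and the median was -0.10. Il7r, named after its values were seen, was at 684, 41.1 and 27.6 CPM in young and 114, 91.8 and 72.6 CPM in old libraries, a log2 difference of -1.43 with all libraries and 1.44 without young replicate 1. Id3 was at 28.5, 31.2 and 35.6 CPM in young and 17.6, 16.4 and 17.7 CPM in old libraries (-0.88 ± 0.16, adjusted p = 0.0689 in edgeR; 0.00921 without young replicate 1). Among 28 partners and regulators of Foxp3, 0 were called in edgeR and 2 in DESeq2, and 3 had an unadjusted p under 0.05 in edgeR, all higher, where 6.69% of all genes were higher by that rule, with a median of -0.03. EdgeR called 4 higher without young replicate 1, against 5.86% of all genes tested. The 2 called in DESeq2 were higher, against 3.56% of all genes. Gata3, which had the smallest p of the list, was at 92.2, 84.7 and 62.4 CPM in young and 149, 132 and 147 CPM in old libraries (0.84 ± 0.19, adjusted p = 0.108 in edgeR; 0.0134 without young replicate 1).

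**Figure D5:**
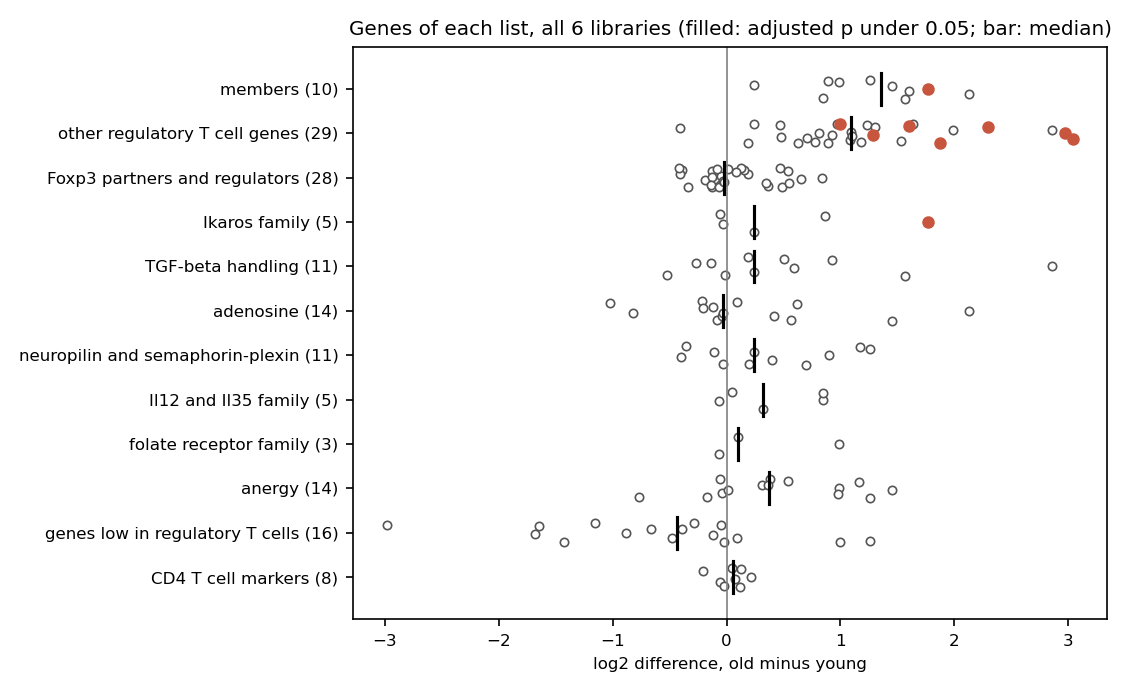
Log2 difference (old minus young, all 6 libraries) of every tested gene in the marker set and in 11 other lists, with the number of genes tested in parentheses; filled points have an adjusted p under 0.05 in edgeR and the bar is the list's median. The markers (median 1.35) and the other regulatory T-cell genes (1.09) lie to the right of 0, and the Foxp3 partners are centred at -0.03.

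Markers of other cell types were read in the same libraries. Summed over the list, neutrophil markers were at 40.6 to 105 CPM in young and 13.3 to 41.1 CPM in old libraries. Of 6 tested, 5 were lower in old at an unadjusted p under 0.05 in edgeR, against 3.96% of all genes tested. DESeq2 called 3 lower, against 1.21% of all genes. Dendritic cell markers were at 26.3 to 35.0 CPM in young and 35.5 to 40.7 CPM in old libraries, with Cd209a at 0 throughout. In that list Zbtb46 was at a mean of 7.62 CPM in young and 17.1 CPM in old libraries, while Xcr1 was at 5.08 and 4.5 CPM and Tcf4 at 8.2 and 8.49 CPM. Natural killer cell markers were at 48.7 to 101 CPM in young and 31.7 to 40.0 CPM in old libraries, but nearly all of the sum was Eomes, which activated T cells can also express, at 47.6 to 99.7 CPM in young and 29.7 to 37.1 CPM in old libraries. The natural killer receptor gene Ncr1 was near 0, at a mean of 0.11 CPM in young and 0.29 CPM in old libraries. CD8 markers were at 16.6 to 27.5 and 11.3 to 14.6 CPM, with Cd8b1 at a mean of 19.3 and 10.8 CPM and Cd8a at 1.95 and 2.09 CPM. B cell markers (37.0 to 84.1 and 32.3 to 63.1 CPM) and macrophage and monocyte markers (26.3 to 32.8 and 22.9 to 33.2 CPM) overlapped between groups. Platelet markers (4.19 to 11.3 and 4.21 to 4.7 CPM, Treml1 at 0) and endothelial markers (0.868 to 5.6 and 1.15 to 2.35 CPM, Emcn at 0) were lowest. In edgeR with all libraries, 0 genes of these 8 lists were called, while 1 or 0 per list other than neutrophils had an unadjusted p under 0.05 and DESeq2 also called 1 natural killer marker lower and 1 dendritic cell marker higher. EdgeR called the neutrophil gene Ltf and Eomes lower and Zbtb46 higher when young replicate 1 was left out. The part of these cell types in the differences of the regulatory T-cell markers was not tested.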

How the data were processed

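Total RNA of CD4+ T cells was sequenced in 3 young and 3 old libraries. The authors deposited 1 table that gives, per the file headers, expected counts and FPKM values for 66712 RefSeq transcripts in each library. The submitters' processing notes name Bowtie, RSEM and the build GRCm38 (mm10); their versions, the annotation release and the strand setting are not given in those notes.

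Values were added up by gene number (19977 genes, 19830 matched to a symbol and 147 not). Summed counts were rounded and tested with edgeR 4.0.16 (R 4.3.3; TMM factors, quasi-likelihood test, no replicate block) over the 10509 genes whose mean FPKM reached 1; calls needed an adjusted p (Benjamini-Hochberg) under 0.05. The fit was tested on simulated data. CPM uses TMM-scaled library sizes. Ratios to Foxp3 used expected counts with 0.5 added and an exact two-sided permutation test. DESeq2 1.42.0 and limma 3.58.1 were alternatives, along with other filters, scalings, a replicate block and leaving out each library. No 2 libraries agreed within sampling noise (smallest chi-square per degree of freedom 21.55).

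The 10 genes and all lists were chosen with earlier results of these data known. Named genes are the 10, up to 4 per list with the smallest p, the 5 nearest profiles to Foxp3 and to Ikzf2, and Cd4 and Cd3e. Ccdc22, Ppp1r3f and Flicr were named because their exons overlap those of Foxp3. Tgfb1, Il7r, Cd8a, Ncr1 and the named transcripts were chosen after their values were seen. Groups and replicate numbers come from the sample titles, which code the young mice as 1 month old; ages follow the growth protocol in the labels.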

Additional observations from a re-analysis of the deposited data

How the results depend on the processing

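The count of genes called was 92 and became 203 with no filter, 55 with a mean FPKM of at least 5, 501 with DESeq2, 656 with voom and quality weights, and 0 to 929 with 1 library left out, the highest being without young replicate 1. The markers called (1) became 2, 0, 8 and 8 under the same settings and 0 to 9 with 1 library left out. Other regulatory T-cell genes called (7) became 21 with DESeq2, 21 with voom, and 0 to 22 with 1 library left out; 22 includes 1 called lower. Foxp3 was called with DESeq2 (log2 1.60, adjusted p = 0.0034) and voom (1.92, adjusted p = 0.00444), and its difference was 1.24 to 2.07 with 1 library left out. That of Ikzf2 was 1.57 to 2.01 with 1 library left out and 1.76 (adjusted p = 0.0558) at the stricter filter, which ended its call. Ratios to Foxp3 near 0 changed sign when 1 library was left out: Ikzf2 ranged from -0.16 to 0.28, Lrrc32 from -0.22 to 0.02 and Nt5e from -0.30 to 0.02. By expected counts, the share of the leading Nrp1 form was 89.5% in young and 96% in old libraries. With the replicate block, 119 genes and 3 markers were called (Ikzf2, Lrrc32 and Entpd1, adjusted p = 0.0159, 0.0261 and 0.0364). The numbers were not taken to pair the libraries: deviations of same-numbered libraries correlated at 0.232, -0.025 and 0.209. Of the marker differences under the alternatives, 138 stayed on their side of the threshold, 25 newly passed it and 6, all of Ikzf2, no longer passed. The causes of these changes were not tested. Depth limits Entpd1 most, with 16 counts in its lowest library.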
